A study of Mus musculus with 6 samples.

Results

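Cholesterol and unsaturated and saturated fatty acids are made from cytosolic acetyl-CoA by enzymes whose genes are largely under the sterol regulatory element-binding proteins (SREBPs). The gene set described here holds 34 such genes, chosen as a fixed list of symbols among the 55809 genes of the deposited counts. It was divided into 18 sterol synthesis enzymes, 11 fatty acid synthesis genes and 5 regulators (*Srebf1*, *Srebf2*, *Insig1*, *Insig2* and *Stard4*). The RNA came from HC11, a mouse mammary epithelial cell line that the study uses as its luminal line, cultured in medium with BMP7 (3 libraries) or in medium without BMP7 (Ctrl, 3 libraries). For HC11, the methods give starvation in medium listed without serum and then a shorter or a longer stimulation, without saying which of these was sequenced. HC11 is a single cultured line, and nothing in the sources used here says that the libraries came from separate cultures, so p-values measure only the spread between these libraries, which may be technical. Its epithelial genes *Epcam* and *Cdh1* were detected in Ctrl at 291 ± 3.61 and 215 ± 2.53 CPM per kilobase of exon (SD, n = 3 libraries), and the basal keratin *Krt14*, at 1985 ± 71.5, lay above the luminal keratin *Krt8*, at 32.3 ± 2.34, on the same scale. CPM are counts scaled to the size of the library after TMM normalization.

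SREBPs are made as membrane proteins of the endoplasmic reticulum. When membrane sterol is plentiful, the INSIG proteins hold the SREBP escort SCAP there. When it falls, SCAP carries the SREBP to the Golgi, where proteases release the part that enters the nucleus. SREBP-2, from *Srebf2*, acts mainly on sterol genes, and the SREBP-1c form of *Srebf1* mainly on fatty acid genes. In the mammary gland, fatty acid synthesis supplies milk fat during lactation.

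Of the 34 genes, 27 were found by symbol among the RefSeq promoters of build GRCm38.p6, which cover 250 bases before to 50 after each start. *Fads1*, *Fdft1*, *Fdps*, *Scd1*, *Scd2*, *Sqle* and *Stard4* were not matched. The promoters were searched on both strands for a sterol regulatory element (TCACNCCAC), a CCAAT box (CCAAT), a GC box (GGGCGG), an E-box (CACGTG) and a GC-rich Smad element (GGCGCC), and no sites of different motifs overlapped in these genes. A CCAAT box, the site of NF-Y, which acts beside SREBPs, was found for 14 of 15 sterol enzyme genes (93.3%) and 5 of 8 fatty acid genes (62.5%), and for 41.1% of all 27025 genes with a promoter, expressed or not. A GC box was found for 14 of 15 sterol enzyme genes and 4 of 8 fatty acid genes, against 38.2% of all genes. The sterol regulatory element in this spelling was found in *Hmgcs1* alone of the 27 genes, against 1.44% of all genes. The Smad element was found for 3 of 15 sterol enzyme genes and 4 of 8 fatty acid genes, against 13.4% of all genes. An E-box was found for 3 of 15 sterol enzyme genes and 1 of 8 fatty acid genes, against 8.09% of all genes. Of the 4 regulators with a promoter, all had a CCAAT box and a GC box, 1 had an E-box and none had the other motifs. A gene was counted where any of its promoters held the motif, and 5 of the 27 have more than 1 promoter. Per promoter, a CCAAT box was found in 77.8% for sterol enzymes, 62.5% for regulators and 55.6% for fatty acid genes, against 37.4% of all promoters. For the GC box these were 83.3%, 75% and 44.4%, against 35.7%.

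The promoters shown belong to *Hmgcs1* and *Idi1*, which were higher with BMP7, to *Insig1*, which came close to the threshold, and to *Dhcr7*, which was lower. The promoters are at chr13:119690101-119690400 (plus strand) for *Hmgcs1*, chr13:8885356-8885655 (plus) for *Idi1*, chr5:28071162-28071461 (plus) for *Insig1* and chr7:143829964-143830263 (plus) for *Dhcr7*, the one of its 3 listed promoters that holds a CCAAT box. Capitals mark the sterol regulatory element, the CCAAT boxes (ATTGG where the box lies on the other strand) and the E-box.
Hmgcs1: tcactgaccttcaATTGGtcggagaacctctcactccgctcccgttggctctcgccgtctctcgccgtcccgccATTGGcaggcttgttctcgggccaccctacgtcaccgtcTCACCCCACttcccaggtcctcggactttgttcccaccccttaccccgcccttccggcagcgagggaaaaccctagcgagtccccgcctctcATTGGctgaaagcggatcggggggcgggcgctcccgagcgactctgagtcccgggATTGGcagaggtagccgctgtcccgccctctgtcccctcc
Idi1: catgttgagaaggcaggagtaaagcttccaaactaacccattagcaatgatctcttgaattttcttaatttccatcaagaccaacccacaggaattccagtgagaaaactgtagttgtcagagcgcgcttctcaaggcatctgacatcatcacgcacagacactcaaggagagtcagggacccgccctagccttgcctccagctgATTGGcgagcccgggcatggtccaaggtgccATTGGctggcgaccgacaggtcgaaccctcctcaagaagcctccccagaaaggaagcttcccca
Insig1: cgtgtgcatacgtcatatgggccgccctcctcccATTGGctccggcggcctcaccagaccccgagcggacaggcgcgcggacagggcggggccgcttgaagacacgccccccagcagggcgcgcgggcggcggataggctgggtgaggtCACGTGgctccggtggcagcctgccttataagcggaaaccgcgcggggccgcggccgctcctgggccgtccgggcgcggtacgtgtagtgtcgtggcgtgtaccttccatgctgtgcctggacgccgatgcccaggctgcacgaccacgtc
Dhcr7: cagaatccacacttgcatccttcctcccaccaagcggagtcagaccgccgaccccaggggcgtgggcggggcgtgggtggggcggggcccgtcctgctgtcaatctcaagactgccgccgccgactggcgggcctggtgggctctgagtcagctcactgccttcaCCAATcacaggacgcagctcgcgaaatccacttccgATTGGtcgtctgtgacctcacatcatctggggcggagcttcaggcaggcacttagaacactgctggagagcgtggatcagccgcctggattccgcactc
The sterol regulatory element of *Hmgcs1*, TCACCCCAC, starts at position -137 from the transcription start. *Hmgcs1* also has 4 CCAAT boxes, *Idi1* and this *Dhcr7* promoter have 2 each, and *Insig1* has 1 CCAAT box and 1 E-box.

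Between 14607938 and 23748970 fragments were counted per library, the fewest in BMP7 replicate 1. The BMP7 columns of the deposited counts are numbered 1, 3 and 4 and the Ctrl columns 1, 2 and 3, and the libraries are named here by these numbers. All 34 genes passed edgeR's expression filter. The quasi-likelihood test of edgeR was run on all 15733 genes that passed, and its p-values were adjusted over them by the Benjamini-Hochberg method. Genes were called where the adjusted p was below 0.05 and the levels differed by more than 1.2-fold (0.26 on the log2 scale). As a check of the stimulus, *Id1*, a direct target of BMP signaling, had a log2 fold change of 4.28. BMP7 replicates 3 and 4 stood apart from replicate 1 in genes known from other cell types, whose values are given beside the fatty acid genes.

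The genes were first ordered by level, as CPM per kilobase of exon in Ctrl. *Scd2* and *Scd1*, stearoyl-CoA desaturases that make monounsaturated fatty acids, stood highest at 451 ± 18.5 and 204 ± 13.9 (SD, n = 3). The delta-6 desaturase gene *Fads2* followed at 109.7 ± 4.45. *Cyp51*, the lanosterol demethylase, led the sterol enzymes at 71.7 ± 9.21. *Acly* at 63.0 ± 2.99 and *Fasn* at 56.3 ± 5.60 did not differ from their neighbours *Cyp51* and *Fads1* beyond this spread. Both SREBP genes were at similar levels, *Srebf2* at 48.6 ± 1.17 and *Srebf1* at 46.2 ± 4.13. The lowest were *Hsd17b7*, *Acss2* and *Fdps*, at 1.83 ± 0.252, 1.55 ± 0.0879 and 0.849 ± 0.164. The level of *Fdps* is uncertain, since 91.4% of its transcript in GENCODE vM21 matched transcripts of 6 other genes at 95% identity over at least 100 bases and fragments that map to several places were not counted. The same match was 65.6% for *Acat2* (with *Acat3* and the neighbouring *Tcp1*), 64.3% for *Acaca*, 60.1% for *Me1*, 54.7% for *Fdft1* and 33.3% for *Idi1*. The levels of these 5 are uncertain too. The match was at most 16.2% for the other genes. Fragments in exon bases shared with another gene were not counted either. Such bases made up 26.7% of the exon length of *Fdps* (with *Gm43738*), 18.8% of *Fdft1* (*Ctsb*) and 12.1% of *Hmgcs1* and of *Tm7sf2*. They made up 9.2% of *Idi1* (*Gm48574*), 9.1% of *Acss2* and at most 3.76% of the others. *Gm43738*, *Ctsb* and *Gm48574* are also among the matching genes.

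**Figure D1:**
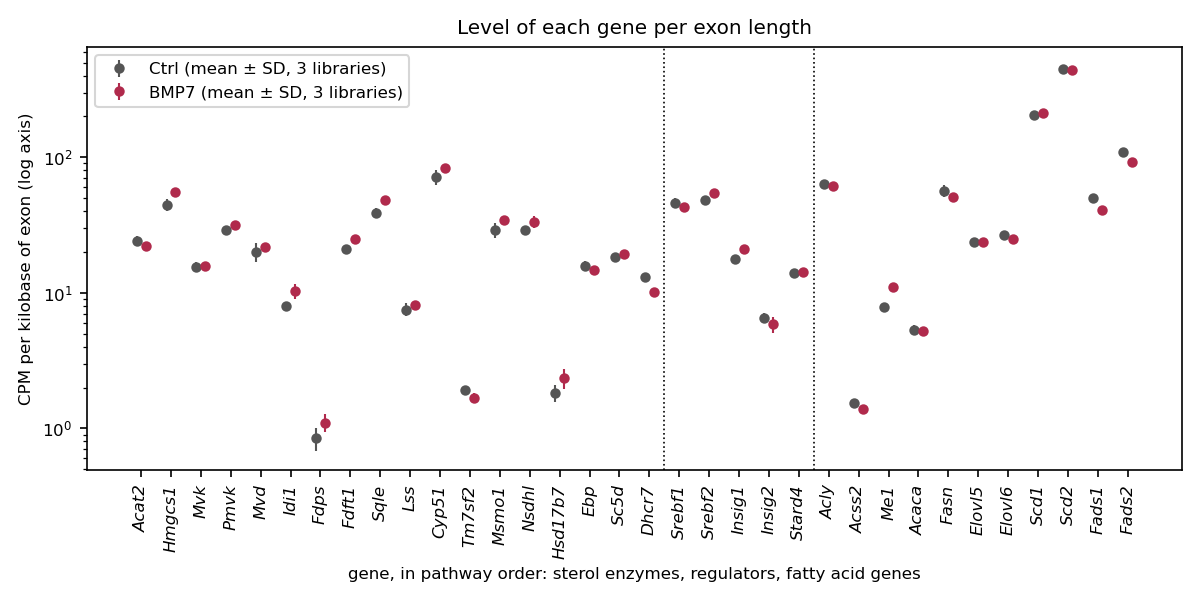
Mean level of each gene with SD over 3 libraries, in CPM per kilobase of exon on a log axis, for Ctrl (grey) and BMP7 (red), with sterol enzymes, regulators and fatty acid genes from left to right. Levels run from 0.849 for *Fdps* to 451 for *Scd2* in Ctrl, and the 2 conditions lie close together for every gene.

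With BMP7, 3 of the 18 sterol enzyme genes were higher and 1 was lower, where 5.99% of all genes tested were higher and 5.38% lower. The higher genes were *Hmgcs1*, *Idi1* and *Sqle*, and the lower gene was *Dhcr7*. No change reached 1.5-fold. By adjusted p alone, *Fdft1* and *Msmo1* were also higher, giving 5 higher and 1 lower, where 7.33% and 6.42% of all genes were. The median log2 fold change over the 18 genes was 0.17, with 14 positive and 4 negative, beside -0.0062 over all genes tested. Every BMP7 library exceeded every Ctrl library for 7 of the 18 genes, and the reverse held for 2 (*Acat2* and *Dhcr7*), against 14.8% and 15.1% of all genes tested. The standard errors of the log2 fold changes ran from 0.06 to 0.20.

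The early, mevalonate end of the pathway turns acetyl-CoA into farnesyl diphosphate. *Hmgcs1*, the cytosolic HMG-CoA synthase, lies on chromosome 13 of the deposited mm39 annotation from 120151915 to 120169796. It was at 193, 227 and 192 CPM in Ctrl replicates 1, 2 and 3 and at 252, 265 and 242 CPM in BMP7 replicates 1, 3 and 4. Ctrl replicate 2 came nearest to the BMP7 libraries, and the groups did not overlap. The mean rose from 204 ± 20.3 to 253 ± 11.4 CPM (SD, n = 3 each) (log2 fold change 0.31, standard error 0.07, edgeR adjusted p = 0.00723). Of its exon length, 12.1% is shared with *Gm48342* on the opposite strand, and strand was not used in counting. BMP7 replicate 1 alone against Ctrl gave the same log2 fold change of 0.31, with an adjusted p of 0.0559 from edgeR, in a fit where this library is assumed to vary like Ctrl.

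*Idi1*, isopentenyl-diphosphate isomerase, on chromosome 13 from 8935537 to 8942487, was at 27.7, 29.9 and 26.8 CPM in Ctrl and at 34.8, 41.3 and 32.6 CPM with BMP7. BMP7 replicate 3 was the highest, and the groups did not overlap. It rose from 28.1 ± 1.61 to 36.2 ± 4.53 CPM (log2 fold change 0.37, standard error 0.09, edgeR adjusted p = 0.0125). It was no longer called without BMP7 replicate 3 (log2 fold change 0.26, edgeR adjusted p = 0.0835), without Ctrl replicate 3 (0.34, adjusted p = 0.0542) or in BMP7 replicate 1 alone against Ctrl (0.31, adjusted p = 0.101). The other 5 mevalonate genes were not called. *Pmvk*, phosphomevalonate kinase, was at 49.7 ± 1.14 CPM in Ctrl and 54.5 ± 1.61 with BMP7 (log2 fold change 0.13). *Mvk* (mevalonate kinase), *Mvd* (mevalonate diphosphate decarboxylase) and *Fdps* (farnesyl diphosphate synthase) had log2 fold changes of 0.02, 0.12 and 0.36, the last with a standard error of 0.20 from 57 to 97 counts per library. *Acat2*, which makes acetoacetyl-CoA, had the one negative value at -0.12.

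The later enzymes turn farnesyl diphosphate into squalene, lanosterol and cholesterol. *Sqle*, squalene epoxidase, on chromosome 15 from 59186926 to 59203041, was at 205, 237 and 206 CPM in Ctrl and at 263, 289 and 252 CPM with BMP7. Ctrl replicate 2 was again the highest Ctrl library, and the groups did not overlap. It rose from 216 ± 18.4 to 268 ± 19.2 CPM (log2 fold change 0.31, standard error 0.07, edgeR adjusted p = 0.00791). Without BMP7 replicate 3 its log2 fold change was 0.25, under the fold threshold (edgeR adjusted p = 0.0428), and BMP7 replicate 1 alone against Ctrl gave 0.28 (adjusted p = 0.0618).

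*Dhcr7*, which reduces 7-dehydrocholesterol to cholesterol as the last step of the pathway, went the other way. It lies on chromosome 7 from 143376882 to 143402147 and was at 70.0, 80.2 and 78.6 CPM in Ctrl and at 55.5, 62.3 and 57.9 CPM with BMP7. Every BMP7 library was below every Ctrl library. The mean fell from 76.3 ± 5.50 to 58.5 ± 3.44 CPM (log2 fold change -0.38, standard error 0.07, edgeR adjusted p = 0.00170). Over the 14 alternatives tried, its log2 fold change lay between -0.46 and -0.34, it stayed past the threshold in each, and the highest adjusted p was 0.0197. These include the same fit without the fold threshold, which any called gene passes.

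Between these steps, *Fdft1*, squalene synthase, was at 81.6, 93.4 and 86.0 CPM in Ctrl and at 102, 105 and 99.3 CPM with BMP7, with no overlap. Its log2 fold change of 0.23 (edgeR adjusted p = 0.0267) lay under the fold threshold. *Msmo1*, sterol methyl oxidase, was at 164, 205 and 164 CPM in Ctrl and at 209, 222 and 208 CPM with BMP7, a log2 fold change of 0.26 (edgeR adjusted p = 0.0381) just under the same threshold. For both genes Ctrl replicate 2 was the highest Ctrl library, and without it both passed the threshold, at 0.28 and 0.37. Without Ctrl replicate 1 they were at 0.19 and 0.20 (edgeR adjusted p = 0.144 and 0.177). *Cyp51*, with a log2 fold change of 0.21, passed without Ctrl replicate 2 (0.32) and was at 0.14 without Ctrl replicate 1. *Nsdhl*, a sterol dehydrogenase at 0.20, passed without BMP7 replicate 4 (0.27) and was at 0.13 without BMP7 replicate 3. None of these genes passed with any other single library left out. Of the remaining 5 genes, none of which was called, *Hsd17b7* (a sterol ketoreductase), *Lss* (lanosterol synthase) and *Sc5d* (a sterol desaturase) had log2 fold changes of 0.36, 0.12 and 0.08, and *Tm7sf2* (a sterol reductase) and *Ebp* (a sterol isomerase) -0.18 and -0.11.

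**Figure D2:**
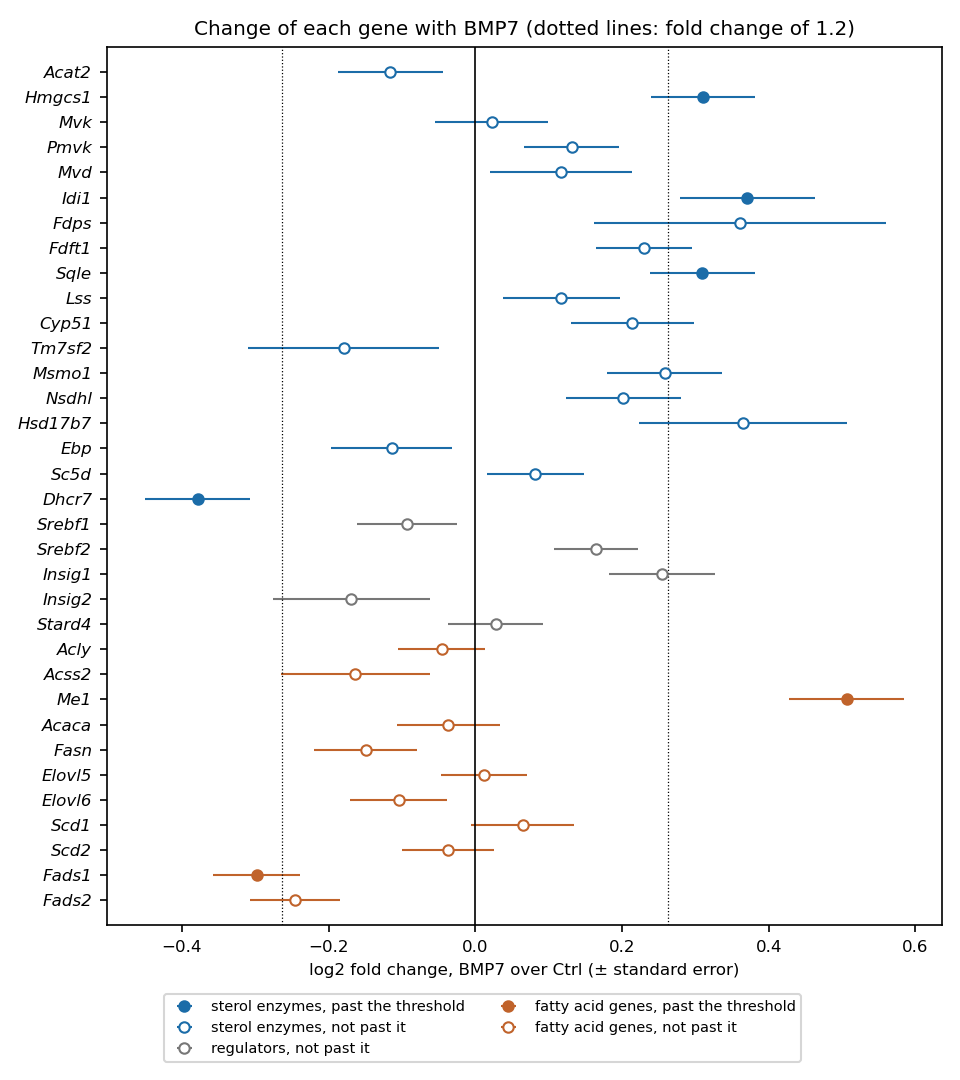
Log2 fold change of each of the 34 genes with BMP7 over Ctrl, with its standard error as a bar, sterol enzymes in blue, regulators in grey and fatty acid genes in orange. Filled points passed the threshold: *Hmgcs1*, *Idi1*, *Sqle* and *Me1* to the right and *Dhcr7* and *Fads1* to the left.

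Most sterol enzyme genes peaked in the same library among libraries of the same condition. Ctrl replicate 2 was the highest Ctrl library for 15 of the 18 sterol enzyme genes (83.3%), where it was the highest for 32.6% of all genes tested. BMP7 replicate 3 was the highest BMP7 library for 13 of the 18 (72.2%), against 33.8% of all genes, and BMP7 replicate 4 was the highest for none. The summed level of the 18 genes was 1501, 1777 and 1543 CPM in Ctrl and 1825, 1926 and 1729 CPM with BMP7. Ctrl replicate 2 thus lay above BMP7 replicate 4, and the sums overlapped between the conditions. Of the 11 fatty acid genes, 6 were highest in Ctrl replicate 3 and 4 in Ctrl replicate 2 among the Ctrl libraries. The count of sterol enzyme genes called was 7 without Ctrl replicate 2 (6 higher, 1 lower), where 1306 of all genes were called. It was 2 without BMP7 replicate 3 (1 higher, 1 lower), where 1302 of all genes were called, beside 1788 with all libraries. BMP7 replicate 1 alone against Ctrl gave a log2 fold change of -0.46 for *Dhcr7*.

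**Figure D3:**
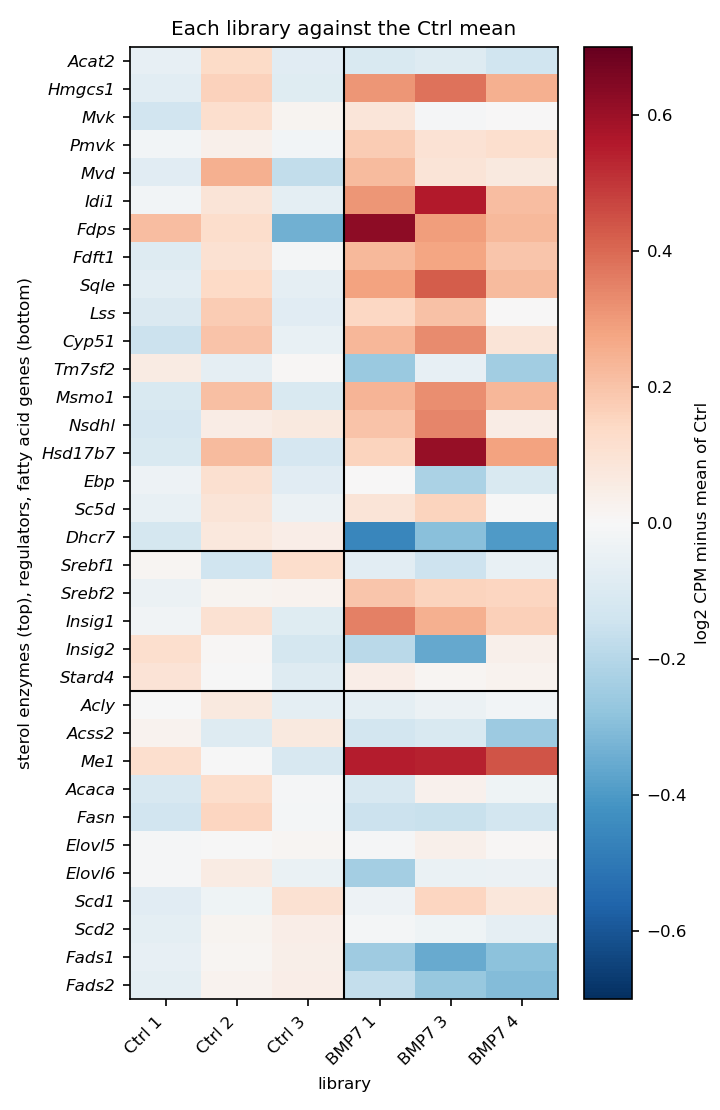
Log2 CPM of each gene in each library minus its mean over Ctrl, red above and blue below, with black lines between the gene groups and between the conditions. Ctrl 2 is red for most sterol enzymes, *Me1* is red and *Dhcr7*, *Fads1* and *Fads2* are blue in all BMP7 libraries.

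None of the 5 regulators was called by edgeR or by DESeq2, which called 5.89% of all genes tested higher and 4.7% lower, and 2 of them, *Insig1* and *Srebf2*, had an unadjusted p under 0.05, as had 26.2% of all genes tested. *Srebf2* was at 339, 354 and 354 CPM in Ctrl and at 399, 389 and 387 CPM with BMP7. Its BMP7 libraries all lay higher, and its log2 fold change was 0.16 (standard error 0.06, edgeR adjusted p = 0.0687). *Insig1*, itself an SREBP target, was at 53.6, 58.9 and 51.6 CPM in Ctrl and at 69.8, 64.8 and 61.4 CPM with BMP7. Its groups did not overlap, and its log2 fold change was 0.25 (standard error 0.07, edgeR adjusted p = 0.0279), under the fold threshold. It was called without Ctrl replicate 2 (0.31) and without BMP7 replicate 4 (0.30). With any other single library left out it was not called, at 0.21 to 0.26 (edgeR adjusted p from 0.0648 to 0.129). BMP7 replicate 1 alone against Ctrl gave 0.35 for *Insig1*. *Srebf1* was at 262, 236 and 282 CPM in Ctrl and at 247, 235 and 250.2 CPM with BMP7, and its groups overlapped (log2 fold change -0.09). *Insig2* and *Stard4*, which encodes a sterol carrier, had log2 fold changes of -0.17 and 0.03 with overlapping groups. Counts per gene do not separate the SREBP-1a and SREBP-1c forms of *Srebf1*.

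Among the 11 fatty acid genes, 1 was higher (*Me1*) and 1 lower (*Fads1*), where 5.99% of all genes tested were higher and 5.38% lower. By adjusted p alone, *Fads2* was also lower. The median log2 fold change was -0.05, with 3 positive and 8 negative. The groups did not overlap for 4 genes, with BMP7 higher for *Me1* and lower for *Acss2*, *Fads1* and *Fads2*, where 14.8% of all genes tested were higher and 15.1% lower in this way. The difference between the sterol enzymes, with a median of 0.17, and the fatty acid genes was not tested.

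*Me1*, malic enzyme, supplies NADPH for fatty acid synthesis and had the largest change of the 34 genes in size. It lies on chromosome 9 from 86463424 to 86578006 and was at 32.5, 29.8 and 27.7 CPM in Ctrl and at 43.8, 43.5 and 40.5 CPM with BMP7. The 3 BMP7 libraries were close together and all above Ctrl. It rose from 30.0 ± 2.39 to 42.6 ± 1.79 CPM (log2 fold change 0.51, standard error 0.08, edgeR adjusted p = 0.000269). It stayed past the threshold in all 14 alternatives, between 0.45 and 0.57, among them the fit without the fold threshold, which any called gene passes. BMP7 replicate 1 alone against Ctrl gave 0.55.

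*Fads1* and *Fads2* encode the delta-5 and delta-6 desaturases of long polyunsaturated fatty acids and are neighbours on chromosome 19, 81141 bases apart. *Fads1*, from 10160252 to 10174241, was at 232, 243 and 248 CPM in Ctrl and at 202, 189 and 197 CPM with BMP7. Every BMP7 library was below every Ctrl library. The mean fell from 241 ± 8.31 to 196 ± 6.97 CPM (log2 fold change -0.30, standard error 0.06, edgeR adjusted p = 0.00235). BMP7 replicate 1 alone against Ctrl gave -0.25 (edgeR adjusted p = 0.0572). *Fads2*, from 10040129 to 10079110, was at 345, 367 and 372 CPM in Ctrl and at 321, 301 and 293 CPM with BMP7, again without overlap. Its log2 fold change was -0.25 (standard error 0.06, edgeR adjusted p = 0.0133), under the fold threshold, which it passed without Ctrl replicate 1 (-0.28), without BMP7 replicate 1 (-0.28) and with upper-quartile scaling (-0.26). With any other single library left out it did not pass, and its smallest change among these was -0.22.

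The core of the pathway was not called. *Acly*, ATP citrate lyase, was at 332 ± 15.8 CPM in Ctrl and 322 ± 5.29 with BMP7, a log2 fold change of -0.05 with a standard error of 0.06. *Acaca*, acetyl-CoA carboxylase, had -0.04 with a standard error of 0.07. *Fasn*, fatty acid synthase, was at 559.9, 682 and 608 CPM in Ctrl and at 554, 551 and 562 CPM with BMP7. Its BMP7 libraries lay near the lowest Ctrl library, and its log2 fold change was -0.15 (standard error 0.07, edgeR adjusted p = 0.191). The elongase genes *Elovl5* and *Elovl6* had 0.01 and -0.10, and *Acss2*, which makes acetyl-CoA from acetate, -0.16. *Scd1* was at 943, 977 and 1073 CPM in Ctrl and at 971, 1105 and 1053 CPM with BMP7 (log2 fold change 0.06, standard error 0.07), and *Scd2* at 2466 ± 101 and 2404 ± 42.2 CPM (-0.04, standard error 0.06). The Ctrl and BMP7 libraries overlapped for both desaturase genes.

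**Figure D4:**
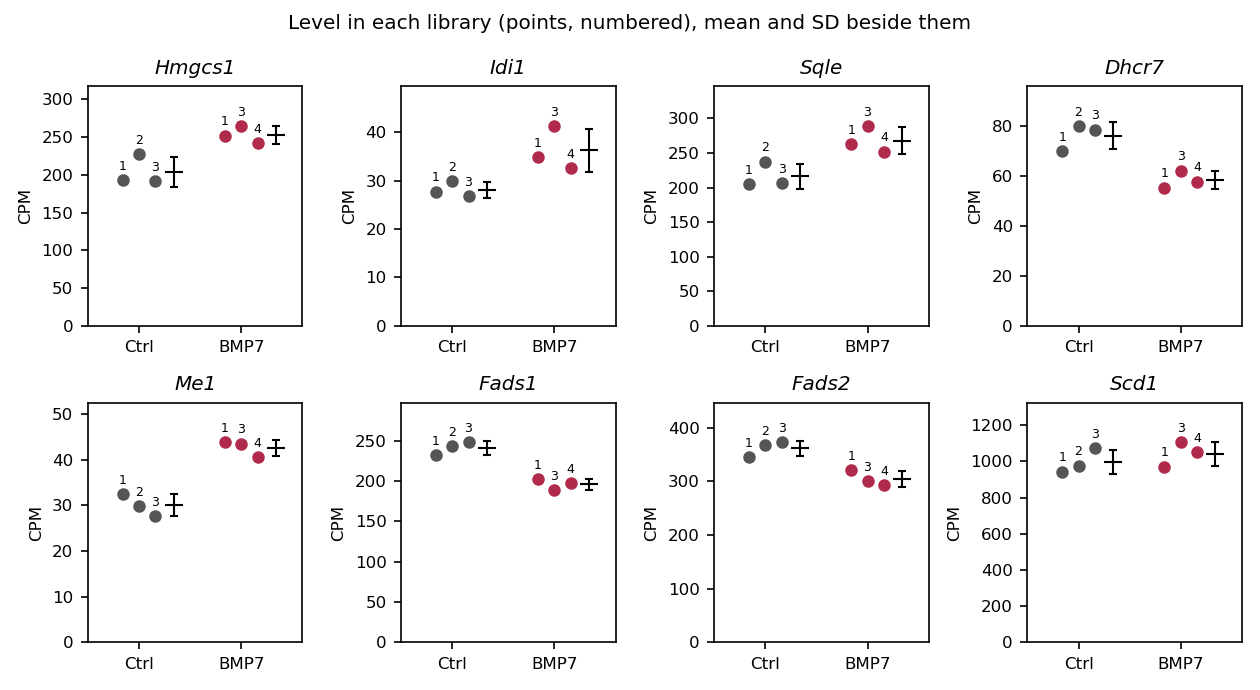
CPM of 8 genes in each library, with the library's number above its point and the mean and SD over 3 libraries beside each group, on axes that start at 0. The groups do not overlap for *Hmgcs1*, *Idi1*, *Sqle*, *Dhcr7*, *Me1*, *Fads1* and *Fads2*, and overlap for *Scd1*.

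Adipocytes also make fatty acids, and adipocyte genes were uneven among the BMP7 libraries. The summed level of 15 adipocyte genes was between 84.3 and 96.4 CPM in Ctrl, 84.7 CPM in BMP7 replicate 1 and 159.8 and 145 CPM in BMP7 replicates 3 and 4. Of the 11 tested, 9 were higher with BMP7 and 1, *Pnpla2*, was lower, where 5.99% of all genes tested were higher and 5.38% lower. DESeq2 called 9 of the 11, where it called 10.6% of all genes tested. *Pnpla2* made up most of the sum in Ctrl, at 58.9 ± 2.53 CPM. Without it, a sum computed after these values were seen, the other 14 genes came to 38.9, 27.0 and 27.8 CPM in Ctrl. With BMP7 they came to 41.7, 115 and 101 CPM in replicates 1, 3 and 4. Every BMP7 library lay above Ctrl, but BMP7 replicate 1 lay close to Ctrl replicate 1, beside an SD of 6.64 CPM over Ctrl. *Adipoq*, which defines adipocytes, was at 0.639 to 1.16 CPM in Ctrl and at 1.05, 4.62 and 3.86 CPM with BMP7. The summed level of 14 macrophage genes was between 56.9 and 62.0 CPM in Ctrl. It was 59.0 CPM in BMP7 replicate 1 and 32.4 and 31.8 CPM in BMP7 replicates 3 and 4. *Lyz2* made up the largest part of this sum, at 26.2 ± 0.557 CPM in Ctrl and 22.5, 6.76 and 6.94 CPM with BMP7. *Cd68* went the other way, from 11.3 ± 0.368 to 13.7 ± 1.71 CPM, and was not called. Of the 10 tested, none was higher and 3 were lower, beside the same 5.99% and 5.38%. Their log2 fold changes were positive for 2 and negative for 8. DESeq2 called 1 of the 10. Of the defining genes, *Pparg* was at 0 in Ctrl replicate 3 and at most at 0.147 CPM elsewhere, and *Adgre1* ran from 0.386 to 1.64 CPM. The part of these cell types' genes in the changes of the sterol and fatty acid genes was not tested. Of 8 epithelial genes, all tested, *Krt14* was higher and *Epcam*, *Cdh1* and *Krt18* were lower, beside the same 5.99% and 5.38% of all genes tested. DESeq2 called 3 of the 8.

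Other genes of sterol metabolism were read from a list of 17, of which 16 were tested, with 2 higher and 2 lower, beside 5.99% and 5.38% of all genes tested. Of those called, the largest change was that of *Mylip*, which encodes a ubiquitin ligase. It rose from 38.9 ± 4.37 to 77.6 ± 9.81 CPM (log2 fold change 1.00, standard error 0.10, edgeR adjusted p = 1.53e-06). *Nr1h3*, the oxysterol receptor LXR alpha, rose by 0.54 from 4.81 ± 0.798 CPM, and without Ctrl replicate 3 it was called (0.66), but leaving out any other single library ended the call (0.42 to 0.55). The sterol exporter gene *Abca1* fell from 102 ± 4.43 to 72.6 ± 9.94 CPM (log2 fold change -0.49), and *Scarb1*, the receptor for high-density lipoprotein, from 39.4 ± 2.32 to 30.5 ± 1.71 CPM (-0.37, and -0.29 and not called in BMP7 replicate 1 alone against Ctrl). None of the 5 genes for SREBP transport and processing was called by edgeR or DESeq2, none had an unadjusted p under 0.05, and their log2 fold changes ran from -0.08 to 0.12.

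Of 19 other fatty acid and triglyceride genes, 18 were tested, with 4 higher and 4 lower, beside the same 5.99% and 5.38% of all genes tested. *Lpin1*, a phosphatidate phosphatase, rose from 44.8 ± 1.59 to 63.0 ± 5.44 CPM (log2 fold change 0.50). *Acsl4*, an acyl-CoA synthetase that favours arachidonate, rose from 139.8 ± 1.41 to 178 ± 14.6 CPM (0.35), and *Slc25a1*, the mitochondrial citrate carrier, from 67.0 ± 1.47 to 81.7 ± 3.29 CPM (0.29). *Thrsp*, a lipogenic gene, was at 0.787 to 1.17 CPM in Ctrl, 0.836 CPM in BMP7 replicate 1 and 2.93 and 2.92 CPM in BMP7 replicates 3 and 4, the libraries with the higher adipocyte sums. Its log2 fold change of 1.23 was called, and leaving out any single library other than BMP7 replicate 1 ended the call (0.98 to 1.38). *Mid1ip1*, which encodes an activator of acetyl-CoA carboxylase, fell from 42.7 ± 2.57 to 30.2 ± 1.87 CPM (-0.50). *Elovl7*, an elongase, fell from 19.1 ± 0.658 to 12.9 ± 2.76 CPM (-0.56). *Cpt1a*, which admits fatty acids to mitochondria for oxidation, fell from 316 ± 14.1 to 245 ± 29.7 CPM (-0.37). *Acacb*, the mitochondrial acetyl-CoA carboxylase, fell from 18.8 ± 3.10 to 12.9 ± 2.82 CPM (-0.55), with overlapping groups, and was not called without Ctrl replicate 1 (-0.42), BMP7 replicate 1 (-0.49) or BMP7 replicate 3 (-0.43).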

How the data were processed

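Poly(A) RNA from 3 BMP7 and 3 Ctrl libraries of HC11 cells was sequenced. The authors aligned read pairs with subjunc (Subread 2.0.3 per the submitters' processing notes) and counted fragments on exons per gene name with featureCounts (2.0.1 in the file header), and the deposited counts are not normalized. The header names an mm39 annotation, where the methods name mm10 and GENCODE vM30. The header's command set no strand option and kept the defaults for reads with more than 1 alignment or gene, which are then not counted, so that genes with near-identical copies come out low. The deposited file also holds each gene's summed exon length. The BMP7 column numbers do not match the numbers in the sample labels, so these columns were assigned to the group only.

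Counts were analysed in R 4.3.3 with edgeR 4.0.16 (filterByExpr, TMM, quasi-likelihood test of BMP7 against Ctrl, 4 residual degrees of freedom), and p-values were adjusted by Benjamini-Hochberg over every gene that passed the filter. Standard errors were derived from each log2 fold change and its F statistic. The test was tried on simulated data before use. All planted changes were larger than those of the called members other than *Me1*, so the trial does not show how smaller changes are called. The alternatives were DESeq2 1.42.0, RLE and upper-quartile scaling, other filters, no fold threshold, leaving out each library, BMP7 replicate 1 alone against Ctrl, and a block for the column number. Near-identical transcripts were searched with BLAST 2.17.0 in GENCODE vM21 (GRCm38). By Poisson counting, the error of a count equals the common biological coefficient of variation (0.0696) at 206 counts and exceeds it below that, as for *Fdps*, *Tm7sf2*, *Nr1h3*, *Thrsp* and most adipocyte and macrophage genes in some or all libraries. The genes, lists and alternatives were chosen with earlier results of these data known. The genes named are the 34 members, genes of the other pathway lists past the threshold, and defining genes and others of the marker lists. *Mlxipl* fell below the expression filter. Some genes of the other pathway lists are not reported here.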

Additional observations from a re-analysis of the deposited data

How the results depend on the processing

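The number of sterol enzyme genes called (4) and of regulators called (0) was the same with DESeq2, with RLE and upper-quartile scaling and with both other filters on low counts, and that of fatty acid genes (2) lay between 2 and 3. Between 1666 and 2082 of all genes were called in these settings, beside 1788 in the fit used above. With adjusted p alone, 6 sterol enzyme genes, 1 regulator and 3 fatty acid genes passed, and 2163 of all genes did. With each library left out in turn, between 2 and 7 sterol enzyme genes, between 0 and 1 regulators and between 2 and 3 fatty acid genes passed. Of all genes, between 1302 and 1966 did. In BMP7 replicate 1 alone against Ctrl the median log2 fold changes were 0.19, 0.05 and -0.11, in the same order. The columns share 2 replicate numbers, 1 and 3, and nothing shows that these pair the libraries (correlations of deviations from the group means of -0.0142 and 0.116). With the replicate block, 11 sterol enzyme genes, 1 regulator and 2 fatty acid genes passed, and 2111 of all genes did. Numbers 2 and 4 occur once each, so this fit leaves Ctrl replicate 2 and BMP7 replicate 4 without weight, with 1 residual degree of freedom.

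The log2 fold changes of 6 genes changed sign under an alternative, 5 of them not called. With each library left out in turn, *Mvk* ran from -0.043 to 0.081, *Stard4* from -0.016 to 0.076 and *Acaca* from -0.092 to 0.027. *Acaca* was at 0.024 with the replicate block, and *Elovl5* at -0.0068 with upper-quartile scaling. In BMP7 replicate 1 alone against Ctrl, *Elovl5* was at -0.0078, *Scd1* at -0.037 and *Thrsp*, called with all libraries, at -0.22. The causes were not tested. With 3 libraries a group, changes near 1.2-fold lie close to what the spread between libraries allows to be called.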
